A study of Mus musculus with 13 samples.

Results

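The Agilent 8x60K mouse array carries, beside its probes for named genes, 16171 probes of 60 bases that are named by a stretch of the genome and a strand, and whose array descriptions call them lincRNA probes. They cover 4605 region strands in 3539 regions. Of these regions, 1599 (1881 strands) are described here, through the 3332 probes (20.6%) whose mouse signal was well above background on at least 6 of the 13 arrays. The rule leaves out 10 probes of 1 region on chromosome 14. In all, 22740 of the 55681 probes on the array passed the same filter, among them 19402 (49.1%) of the 39500 probes of named genes. The groups' measured differences were not used to choose the probes.

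RNA came from the gastrocnemius, a calf muscle, of male C57BL/6J mice that entered the study at 12 weeks of age and ate a purified low fat diet for 12 weeks. The 6 wild type mice were compared with 7 littermates that carry a UCP1 transgene. UCP1 lets protons leak across the inner mitochondrial membrane and is normally found in brown fat. The labels used here do not name the promoter of the transgene. Each array set the Cy5-labelled RNA of 1 mouse against a Cy3-labelled pool that served as a reference on every array, without a dye swap. Levels below are log2 ratios of the mouse to that pool, and differences are UCP1 transgenic minus wild type on the log2 scale.

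Long intergenic noncoding RNAs are transcripts from between protein-coding genes that hold no long reading frame. Many are spliced and polyadenylated like messenger RNAs, are present at lower levels than those and are restricted to fewer tissues. Some act on chromatin or on RNA processing, as Malat1 and Neat1 do in the nucleus, some host small nucleolar RNAs, and some loci first listed as noncoding in muscle were later found to encode micropeptides, of which myoregulin is one.

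Each region is read through its probes, and the probes of the strands that moved most are shown here, 5′ to 3′, as the array files give them. Positions are those of the file headers in mm9 (NCBI37). The first set is from regions that hold no kept probe of a named gene. Distances run from the region to the nearest kept gene probe, not to the gene's ends, so a region can lie nearer to the gene or inside it. Gene probes that did not pass the filter were not considered, also where none is listed within 100 kb. In this set capitals mark AATAAA, the core of the polyadenylation signal, searched on the probe strand only.
chr17:29602949-29603008, forward, lower, 27.7 kb from Pim1: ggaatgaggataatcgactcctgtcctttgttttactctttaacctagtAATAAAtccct
chr3:146557010-146557069, forward, lower, 85.6 kb from Ttll7: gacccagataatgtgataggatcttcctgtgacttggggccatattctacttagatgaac
chr5:35976912-35976971, forward, higher, 19 kb from Acox3: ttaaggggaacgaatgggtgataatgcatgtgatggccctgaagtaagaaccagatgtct
chr16:23560038-23560097, forward, higher, 53.5 kb from Rtp4: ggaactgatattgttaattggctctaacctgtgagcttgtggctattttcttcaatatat
chrX:65757484-65757543, forward, higher, no gene probe within 100 kb: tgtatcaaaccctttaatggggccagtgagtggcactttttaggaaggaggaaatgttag

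The Pim1-side probe ends on the last base of its region with AATAAA just before that end. AATAAA stood in 3 of the 20 brightest probes of the strands named by size of difference, in 140 (4.20%) of the 3332 kept probes and in 634 (3.92%) of all 16171. It stood in 5.42% of the probes that were higher and in 5.46% of those that were lower. The median GC content was 45% among kept probes and among those not kept.

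In the second set, from 2 of the 10 strands that rose most, capitals mark the longest run of bases that both probes hold. The run has 18 bases, includes AATAAA, and is also found in 2 of the 4 kept probes of Mif, the gene of a cytokine and tautomerase, on chromosome 10.
chr19:56829365-56829424, reverse, higher: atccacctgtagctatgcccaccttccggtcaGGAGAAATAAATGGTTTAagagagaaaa
chr17:48073450-48073509, forward, higher: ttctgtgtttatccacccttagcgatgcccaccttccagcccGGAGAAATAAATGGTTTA

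Before the comparison, 1 array needs naming. For Ucp1, the array of the mouse labelled wild type 4 gave 0.45, inside the range of the transgenic arrays (-0.20 to 0.85) and against its label, while the other 5 wild type arrays did not exceed -2.82. For Fgf21, a hormone that muscle releases under stress, that array read -3.60 and lay with the wild type. Results are therefore given with it and, where they lead, without it. Of 8 skeletal muscle markers, all measured, 1 was higher (Myh1) and 5 were lower, with a mean log ratio of 0.12 to 0.42 in the wild type group and -0.27 to -0.0035 in transgenic arrays. Of 8 white adipocyte markers, 6 were higher and none lower, and their mean log ratio ran from -0.61 to -0.05 in wild type and from -0.22 to 0.34 in transgenic arrays, with wild type 4 at -0.05. All 3 erythroid markers were higher (wild type -0.87 to -0.15, transgenic -0.41 to 0.81). Of the 5 fibroblast markers 1 was higher, of the 4 measured nerve and Schwann cell markers 3 were higher, and of the 5 endothelial and the 5 measured leukocyte markers 1 each was lower. Beside these counts, 16.7% of all gene names on the array were called higher and 16.0% lower. Of the 5 brown adipocyte markers 4 were measured, with 1 higher and 1 lower, and Elovl3 had no kept probe. Their mean log ratio was 0.50 in wild type 4, the highest of all arrays, with the wild type from -0.62 and the transgenic arrays from -0.20 to 0.057. Cidea, a lipid droplet protein of brown fat, gave 0.70 with that array (adjusted p = 0.252) and 1.27 without it (adjusted p = 0.000102). With median centring the muscle markers that were lower, the nerve markers, and the endothelial, leukocyte and brown adipocyte calls missed the threshold, while Myh1, 4 of the white adipocyte markers, 1 erythroid and the fibroblast marker passed it. The part of these cell types in the differences below was not tested. In whole muscle, fewer cells of a type and less RNA per cell cannot be told apart.

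Region RNA was dim and only partly measurable in this muscle. Per array, 2768 to 3761 of the 16171 probes (17.1% to 23.3%) were well above background. The 6 wild type arrays had 3187 ± 343 of them (SD, n = 6). The 7 transgenic arrays had 3380 ± 378 (SD, n = 7), a difference within the spread between mice (exact permutation test, two-sided p = 0.345). Of the 3332 kept probes, 2102 (63.1%) were measured on all 13 arrays, while 10910 of the region probes were measured on none. The median signal of kept region probes, the mean log2 intensity of both dyes, was 6.95, against 8.20 for kept probes of named genes. Just inside the filter, the 156 probes measured on exactly 6 arrays had a median signal of 6.44 and a median absolute difference of 0.076. Just outside it, the 171 probes measured on exactly 5 arrays had 6.40 and 0.072.

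Kept probes lay on both strands and along the whole length of the regions. The filter kept 20% of 8166 forward and 21.2% of 8005 reverse probes. From the 5′ to the 3′ end of a region, in 5 equal steps of its length, it kept 24.1%, 20.7%, 20.3%, 18.7% and 20.2% of the probes, although 6298 of the 16053 placed probes lie in the last step. Regions with a kept probe were 104 to 533972 bases long (median 11226). Of the 1066 regions probed on both strands, 282 had a kept probe on both, 485 on 1 strand only and 299 on none. A region strand had 1 kept probe in 1119 cases and 2 or more in 762, with 10 at most. Regions of 1 strand can overlap: 562 of the 1881 strands share bases with another, and merging leaves 1564 loci.

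More region probes were lower than higher in the UCP1 transgenic muscle. By limma, with p-values adjusted by Benjamini-Hochberg over all 22740 kept probes, 771 region probes (23.1%) passed an adjusted p of 0.05, where 31.8% of all kept probes did. Higher in transgenic muscle were 240 (7.20%), against a background of 15.9%, and lower were 531 (15.9%), against 15.8%. The share called lower was thus at the background and the share called higher was below it. Without wild type 4 the counts were 239 and 500. Of the region calls 68.9% were lower, of all calls on the array 49.8%. With log ratios centred on the median and no loess, 74 were higher and 94 lower, 56.0% of the region calls against 23.2% of all calls. From the authors' deposited table, by the same test, 168 were higher and 744 lower, 81.6% against 54.4%.

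The median difference of the 3332 probes was -0.040 and that of all kept probes -0.0022. With median centring, which moved the median of all probes to 0.13, the region median was 0.035, or 0.093 below it. In 315 region probes (9.45%; 69 higher and 246 lower) the transgenic and wild type arrays did not overlap, against 14.2% of all kept probes (6.98% higher and 7.19% lower). Counted by strand, through its brightest kept probe, 414 of 1881 were called (22.0% against 32.7% of all gene names). Higher were 115 (6.11% against 16.7%) and lower were 299 (15.9% against 16.0%). The groups did not overlap in 36 strands that were higher (all gene names: 7.47%) and 129 that were lower (7.25%), together 8.77% against 14.7%.

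Most of these differences were small. With the offset of 50, which draws dim probes toward 0, a difference of at least 0.5 was found in 19 strands that were higher and 59 that were lower, and a difference of at least 1 in none that was higher and 15 that were lower. Differences of these sizes were not counted over all gene names, so no share of the array stands beside these counts. With Agilent's own log ratio, which has no offset, some increases named below are over 1 as well. Some of these strands had no measured wild type array, and there the ratio rests on signal not well above background. The median size of a called difference was 0.33 among region probes and 0.36 among kept probes of named genes. Of the 771 called probes, 707 had 1 direction within each of the 4 slides. They were called from these same arrays, so this count is no separate support. Where the groups did not overlap, the direction within slides was fixed. The median over all kept region probes was -0.045 to -0.036 within the slides, where all kept probes had -0.0042 to 0.0014.

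The share of called probes rose with the signal in the same way as for named genes, but the direction differed. Of the 833 region probes with the lowest signal 8.16% were called, and of the 833 with the highest 43.0%, where 43.1% of the 11405 named-gene probes of the same range were called. In that brightest range 11.2% of region probes were higher and 31.8% lower, against 22.4% and 20.7% of named-gene probes. These shares are descriptions of the probes, and the difference between the kinds of probe was not tested.

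**Figure D1:**
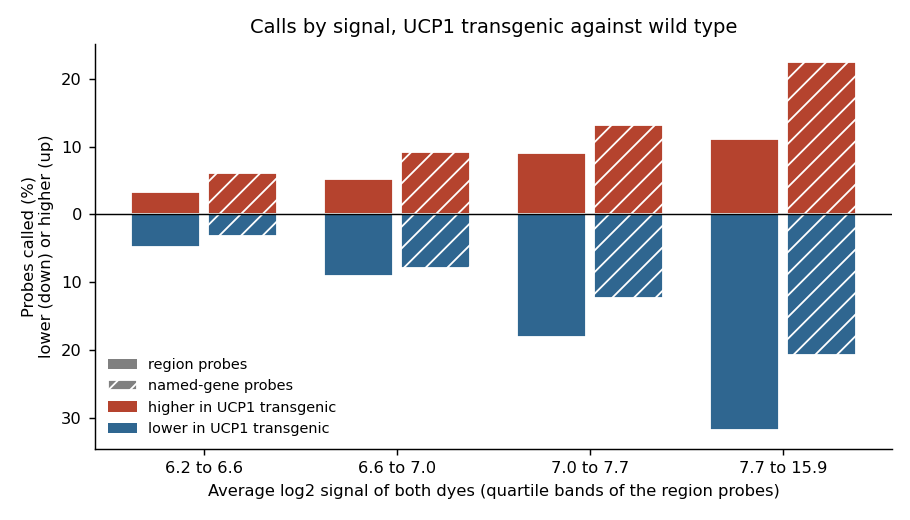
Share of kept probes called in the limma test (adjusted p under 0.05), in percent, by band of average log2 signal of both dyes. Bars above 0 are higher and bars below 0 are lower in UCP1 transgenic muscle, plain for region probes and hatched for named-gene probes. In the brightest band the region bars stand at 11.2% higher and 31.8% lower, the named-gene bars at 22.4% and 20.7%.

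The largest decrease was on chromosome 10, at the gene of myoregulin (Mrln), a micropeptide that inhibits the calcium pump of the sarcoplasmic reticulum. The forward strand of chr10:69669025-69686275 read 0.44 at the lowest, 0.73 at the median and 0.92 at the highest in wild type, and -1.52, -1.30 and -0.90 in transgenic arrays. The groups were far apart, and the difference was -1.99 ± 0.10 (SE), 3.96-fold lower (limma, adjusted p = 1.1e-11). All 5 of its probes were lower, by -2.0 to -1.78. The shorter region inside it, chr10:69679644-69682458, had the same difference of -1.99 ± 0.13. The array's gene inside both, 2310015B20Rik, is Mrln in RefSeq, a protein-coding gene, and was lower by -1.97. Its RNA and that of the region cannot be told apart at these positions. The reverse strand of the longer region was lower too, by -0.59.

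On chromosome 3, 3 forward-strand regions at or near Ttll7, a tubulin polyglutamylase, were lower. The region chr3:146645022-146646977, which starts 2.31 kb beyond the gene's kept probe, read 0.36, 0.58 and 0.77 (lowest, median, highest) in wild type and -1.47, -1.34 and -1.18 in transgenic arrays. No transgenic array came near a wild type array, and the difference was -1.89 ± 0.07 (adjusted p = 1.9e-13). The region chr3:146629425-146649125, which holds the Ttll7 probe, was lower by -1.78 ± 0.10, with 4 of 4 probes lower (-2.05 to -1.51). The third, chr3:146515333-146557069, lies 85.6 kb from that probe and was lower by -1.41 ± 0.07, with 3 of 3 probes lower. Its wild type arrays ran from 0.44 to 0.72 and its transgenic arrays from -1.04 to -0.66. Ttll7 itself was lower by -1.16.

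Also on chromosome 3, 2 nested forward-strand regions at 1110002E22Rik, listed by RefSeq as protein-coding, were lower by -1.35 ± 0.10 (chr3:137742666-137744470) and -1.25 ± 0.13 (chr3:137736327-137752677). The shorter region read 0.20 to 0.73 in the wild type group and -1.16 to -0.55 in transgenic arrays, without overlap. The gene read -1.40. On the reverse strand, chr3:21964899-21974524 was lower by -1.28 ± 0.08, from 0.34 to 0.60 in wild type to -1.08 to -0.60 in transgenic arrays. All 5 of its probes were lower (-1.28 to -0.81), as was 2810416G20Rik inside it (-0.97), a clone name of the array that was not matched to RefSeq.

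On chromosome 17, the forward strand of chr17:29571806-29603008 fell to the background or near it in transgenic muscle. Its nearest measured gene, 27.7 kb away, is Pim1, a serine/threonine kinase. Wild type arrays read 0.39, 0.66 and 0.77 (lowest, median, highest) and transgenic arrays -1.23, -1.07 and -0.97, again without overlap. The difference was -1.68 ± 0.07 (3.21-fold, adjusted p = 1.2e-12). This probe was well above background on 6 of 6 wild type and 5 of 7 transgenic arrays, and the strand's 2 other probes, lower by -1.40 and -1.37, on none of the transgenic arrays. With Agilent's own log ratio the difference was -3.42. Pim1 was lower by -0.99.

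On chromosome 13, chr13:94180737-94182912 lies 5.86 kb from the probe of Homer1, a scaffold protein of calcium signalling in muscle and synapses. Its forward strand read 0.50 to 0.75 in the wild type group and -0.85 to -0.52 in transgenic arrays. The difference was -1.28 ± 0.07 with 3 of 3 probes lower, and Homer1 was lower by -1.21.

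Increases were smaller than these decreases on the scale with an offset of 50, and their order depends on that offset. The largest on it was the forward strand of chr5:35975265-35982561, which gave 0.86 with Agilent's own log ratio, less than 3 of the other 9 increases named by size. It read -0.74, -0.56 and -0.34 (lowest, median, highest) in wild type and 0.04, 0.36 and 0.71 in transgenic arrays. The groups did not overlap, and the difference was 0.89 ± 0.09 (1.86-fold, adjusted p = 3.9e-07), with 4 of 4 probes higher (0.45 to 0.89). The nearest measured gene, Acox3, a peroxisomal acyl-CoA oxidase 19 kb away, was lower by -0.41.

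The next, the reverse strand of chr19:56820850-56837925, was higher by 0.79 ± 0.09, from -0.54 to -0.06 in wild type to 0.15 to 0.68 in transgenic arrays. The forward strand of chr17:48068261-48087905 was higher by 0.60 ± 0.07, from -0.41 to 0.04 to 0.26 to 0.47. These are the probes with the 18-base run shown above. The chromosome 17 probe aligned with a Mif probe over 50 bases at 94.0% identity, the brightest chromosome 19 probe over 58 bases at 89.7% identity, and the other kept probe of that strand, higher by 0.84, over 57 bases at 86.0%. The 4 kept Mif probes were higher by 0.59 to 0.71. On this array, RNA of these regions and RNA of Mif cannot be told apart at these probes.

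Near Rtp4, an interferon-induced chaperone of receptors, the forward strand of chr16:23543837-23560153 was higher by 0.74 ± 0.09. It read -0.54 to -0.29 in the wild type group and 0.04 to 0.52 in transgenic arrays, without overlap, and 1.77 with Agilent's own log ratio. Rtp4, 53.5 kb away, was higher by 0.53. A second forward region on that side, chr16:23534663-23535172, was well above background on no wild type and all 7 transgenic arrays, with a bound of 1.44-fold on its increase. For such a bound the brighter group's mean Cy5 signal is divided by the other group's mean, in which each array enters with its dimmest measured signal or the probe's own, whichever is higher. Here the probe's own was the higher, so the bound equals the fold between the group means. Without a dye swap it is open to dye bias. The probe passed the filter through the transgenic arrays alone, so no test of it is given.

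Of the other 6 increases, 3 lay in regions that hold a measured probe of a named transcript. The reverse strand of chr1:107866276-107887102 was higher by 0.69 ± 0.10 with 4 of 4 probes higher, and Gm7160, a lncRNA of RefSeq inside it, was higher by 0.38. With Agilent's own log ratio the strand gave 1.24. On chromosome 13, the reverse strand of chr13:58474388-58487288 was higher by 0.65 ± 0.08 with 4 of 4 probes higher, while the probe of 2210016F16Rik inside it gave 0.33. The forward strand of chrX:98979320-98997145 was higher by 0.63 ± 0.09 with 3 of 3 probes higher, with a probe inside it, on the other strand and with no gene name on the array, at 0.75. On chromosome 11, the reverse strand of chr11:97457180-97487074 was higher by 0.58 ± 0.10 through 1 of its 2 kept probes, 1.77 kb from Epop, a partner of Polycomb complexes, which was higher by 1.05. The reverse strand of chr12:85210777-85262127 is described with its other strand below.

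On the X chromosome the forward strand of chrX:65756325-65757543, with no measured gene within 100 kb, was well above background on none of the 6 wild type and 6 of the 7 transgenic arrays. The bound on its increase was 1.52-fold, close to the fold between the group means, so it is not a minimum. No test of the strand is given, since it passed the filter through the transgenic arrays alone. The normalized log ratios ran from -0.57 to -0.27 in wild type and from 0.12 to 0.46 in transgenic arrays. Agilent's own log ratio gave a difference of 3.21. In wild type that ratio rests on signal not well above background, so its size is not a measured fold.

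**Figure D2:**
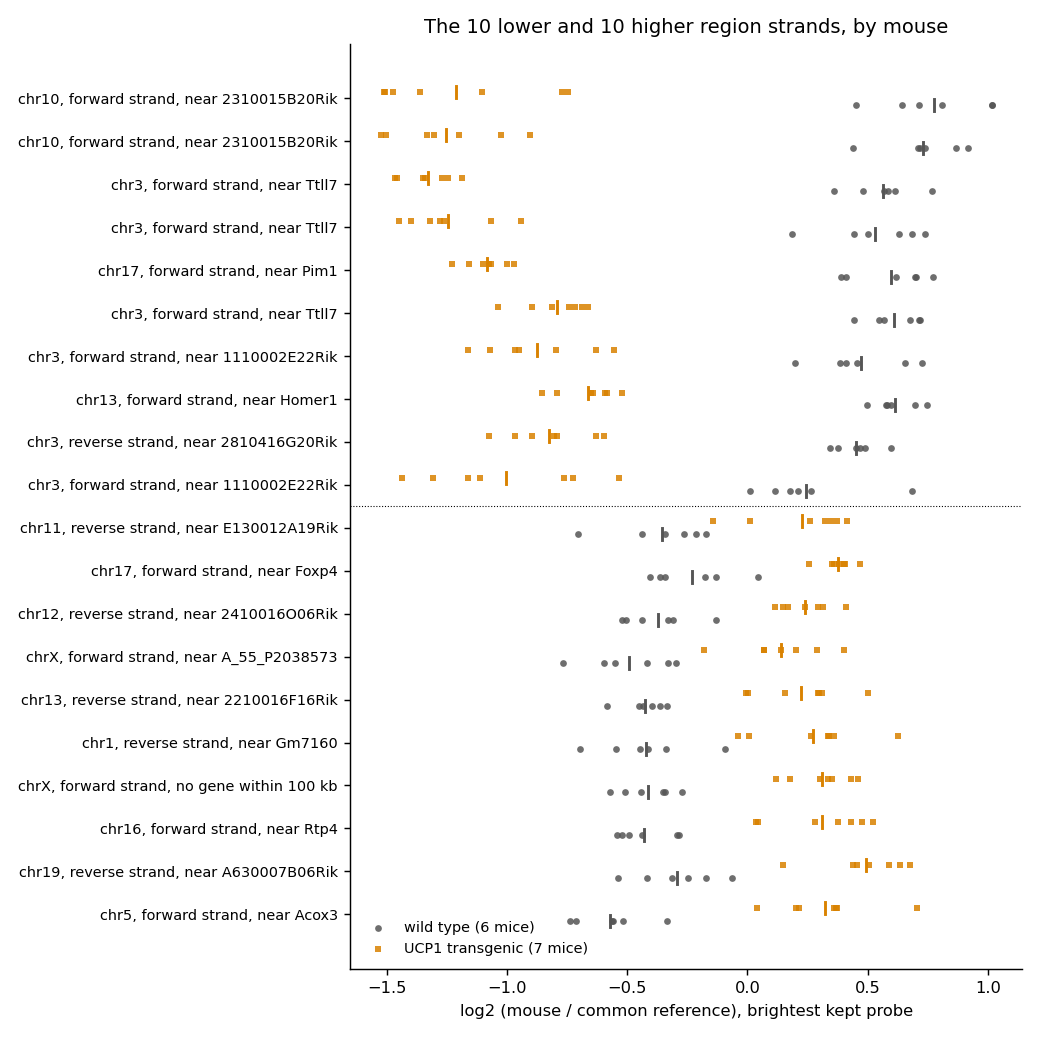
Log2 ratio of each mouse to the common reference for the brightest kept probe of the 10 lower and 10 higher region strands with the largest differences and no overlap between groups, grey circles for 6 wild type and orange squares for 7 UCP1 transgenic mice. Short bars are group means, and strands are labelled by chromosome, strand and nearest measured gene name. The top strand falls by 1.99 and the bottom strand rises by 0.89, on the log2 scale.

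The 10 lower strands come from 7 loci and the 10 higher strands from 10. Since these strands were picked for no overlap between groups, their direction within each of the 4 slides was fixed by the rule. The X chromosome strand with no measured wild type array entered the 10 higher strands through its call and lack of overlap, which are not taken as a test of it. The others passed the threshold without wild type 4 and with median centring. In 4 of the 20 the difference was over 1.5 times as large with Agilent's own log ratio. The 10 lower strands have 6 nearest genes among them, all called lower, and 6 of the 10 higher strands have a nearest gene called higher. Of all 1599 nearest genes, 321 were called lower and 251 higher. Where the gene's probe lies inside the region, it and the region probes can read the same transcript.

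Some region strands were measured in 1 group only. Among the kept strands, 7 had not a single array of 1 group with a measured probe, in 6 cases the wild type. They passed the filter through the other group alone, so their differences are given without a test. The exception in direction was the forward strand of chr9:66976750-67014625, measured on 6 of 6 wild type and no transgenic array. The bound on its decrease in transgenic muscle was 2.07-fold. Tln2, the talin gene 50.3 kb away, was higher by 0.38. The forward strand of chr6:126766225-126771309 was 1.23-fold higher, with 0.06 for Ndufa9, a complex I subunit 687 bases away, which was not called (adjusted p = 0.678). On chromosome 4, the reverse strand of chr4:123361002-123364781 was 1.12-fold higher, with Ndufs5, another complex I subunit 25.2 kb away, lower by -0.35. Its groups overlapped. On chromosomes 6 and 4 the bound equals the fold between the group means, and on chromosome 9 it lies close to it, so none is a minimum. With Agilent's own log ratio the strands on chromosomes 9, 6 and 4 differed by -3.93, 1.51 and 0.96. In 1 group of each, that ratio rests on signal not well above background, so these sizes are not measured folds. Because the filter needs only 6 arrays, 12 kept probes had no wild type and 10 no transgenic array above background, and these passed it through 1 group alone. They were not taken out of the counts of calls and of no overlap given above.

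Of the 762 strands with several kept probes, 467 (61.3%) had differences of 1 sign at all of them, called or not. In the called sense, 90 (11.8%) had all of them called in 1 direction, 24 higher and 66 lower, where 19.8% of 3275 named genes with several kept probes did.

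The forward strand of chr8:72663625-72673010 had 7 of 7 kept probes higher, by 0.20 to 0.56. Its brightest probe read -0.63 to -0.36 in the wild type group and -0.14 to 0.23 in transgenic arrays, without overlap, a difference of 0.49 ± 0.07. Borcs8, a subunit of a complex that positions lysosomes, has its probe inside and was higher by 0.42.

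Probes called in both directions were found on 5 strands, 1.61% of the several-probe strands with any call (named genes 1.2%). On the reverse strand of chr6:86425510-86450160, the probe 20889 bases before the 3′ end was higher by 0.48, and the probes 10517 and 10577 bases before it were lower by -0.31 and -0.37. The lncRNA gene 2310040G24Rik inside it was lower by -0.87. On the reverse strand of chr10:83325890-83402790, the 2 kept probes gave -0.29 and 0.40. On the forward strand of chr8:74820025-74833350, 11.8 kb from Klf2, they gave 0.39 and -0.35. The probes called lower and higher were -0.29 and 0.25 on the forward strand of chr1:33893475-33903900 and -0.23 and 0.29 on the reverse strand of chr5:77188300-77205150. With median centring the brightest probes of the last 4 strands missed the threshold. The brightest probe on chromosome 10 also missed it without wild type 4 (-0.23, adjusted p = 0.0502). That on chromosome 1 missed it without wild type 2, 3, 5 or 6 or transgenic 4 or 5 (0.21 to 0.24). That on chromosome 5 missed it without wild type 6 or transgenic 2 or 7 (-0.21 to -0.19).

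The strands of a region were compared where both could be measured. Of the 282 regions with kept probes on both strands, 167 had neither strand called, 96 had 1 and 19 had both, where 22.0% of all kept strands were called. Both strands were lower in 13 regions, higher in 4 and opposite in 2. Across the 282 regions, whose strands share arrays, samples and partly signal range, the 2 differences correlated at r = 0.29 (Spearman 0.24), given as a description. In chr12:85210777-85262127, the forward strand was lower by -0.45 ± 0.10 and the reverse strand higher by 0.61 ± 0.07. The reverse strand had -0.52 to -0.13 in wild type mice and 0.11 to 0.41 in transgenic mice, and 1 of its 3 kept probes was called. In chr16:59557120-59602070 the forward strand was lower by -0.48 ± 0.06 and the reverse strand higher by 0.25 ± 0.07. With median centring both forward strands and the latter reverse strand missed the threshold (adjusted p = 0.186, 0.224 and 0.078).

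**Figure D3:**
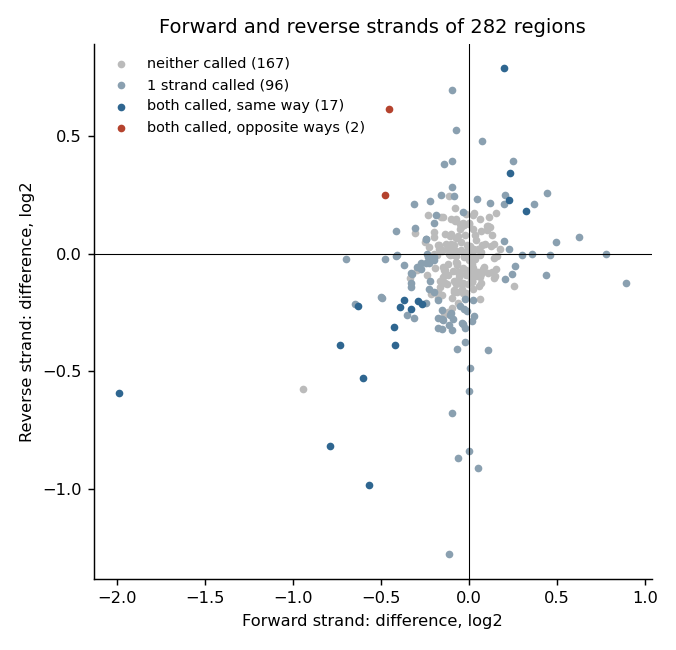
Difference in log2 ratio, UCP1 transgenic minus wild type, of the forward strand (horizontal) and the reverse strand (vertical) for 282 regions with kept probes on both strands, 1 point per region. In 17 regions both strands were called the same way (dark blue) and in 2 in opposite ways (red, upper left), while in 96 only 1 strand was called.

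Each region strand was set beside its nearest measured gene. A measured gene probe lay within 100 kb of 1599 strands, and 379 of them held it inside their bounds, although the array calls them intergenic. Of the 360 called strands among the 1599, the nearest gene was called the same way in 148, the other way in 35 and not called in 177. By direction these were 40 of 102 higher and 108 of 258 lower strands. Of all 1599 nearest genes, 251 were higher and 321 lower, together 35.8%.

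Where the gene lay inside the region on its own strand, 45 of 75 called strands had a gene called the same way and 3 the other way, where 39.3% of such genes were called. On the opposite strand inside the region these were 24 and 3 of 38, with 53.3% of genes called. For genes up to 10 kb away they were 47 and 7 of 104 (34.0% called), and for genes 10 to 100 kb away 32 and 22 of 143 (32.6%). The Spearman correlation of the 2 differences was 0.58 across 244 strands, 0.49 across 135, 0.31 across 459 and 0.03 across 761. The points share arrays, and inside a region they can share the transcript. Of the 282 strands with no measured gene within 100 kb, 54 (19.1%) were called, 13 higher and 41 lower.

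**Figure D4:**
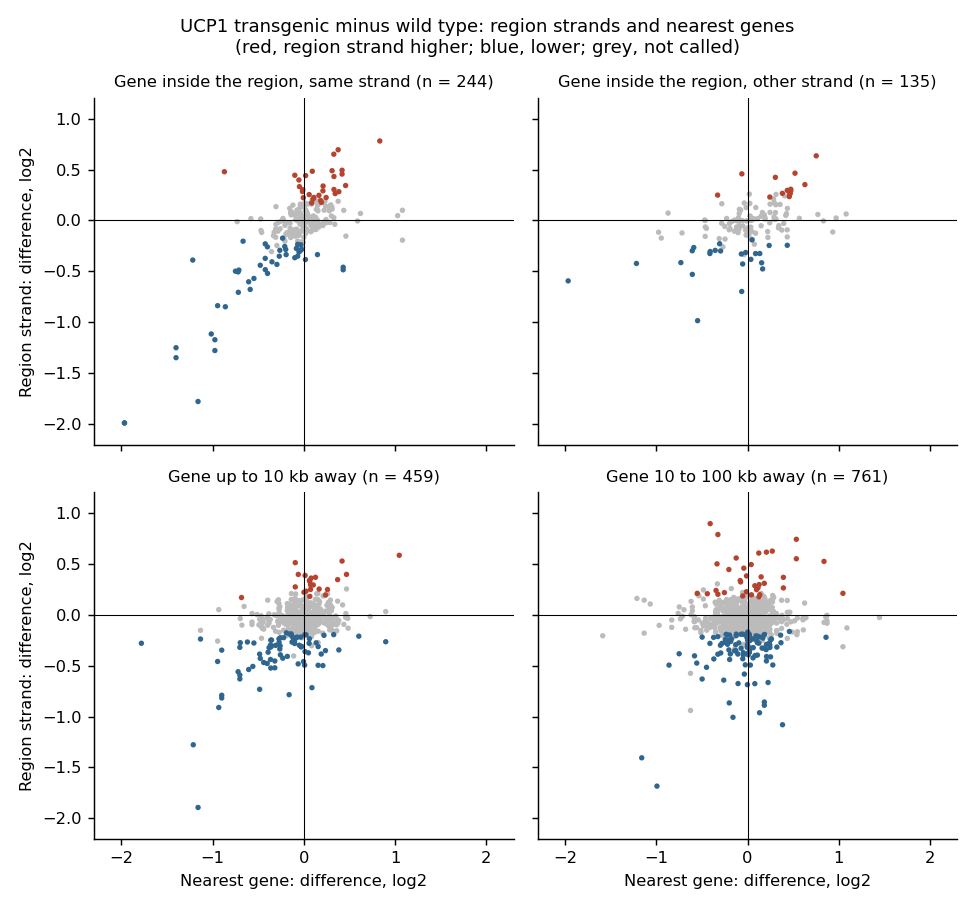
Difference of each region strand (vertical) against that of its nearest measured gene (horizontal), both UCP1 transgenic minus wild type in log2, in 4 panels by the place of the gene's probe. Red strands were called higher, blue lower, grey not called, and 3 strands lie outside the horizontal limits. The cloud follows a diagonal with the gene inside the region (Spearman 0.58 across 244 strands) and not at 10 to 100 kb (0.03 across 761).

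A few strands lie beside genes of known interest in this muscle and were picked after their values were seen. The reverse strand of chr2:152172745-152184745 lies 9.52 kb from Trib3, a pseudokinase of the integrated stress response, which was higher by 4.58. The strand was higher by 0.49 ± 0.11 with 3 of 3 probes higher, and its groups overlapped narrowly (-0.86 to -0.44 and -0.45 to 0.26). With median centring it missed the threshold (adjusted p = 0.082). On chromosome 8, the reverse strand of chr8:126396600-126407275 lies 8.92 kb from Acta1, the skeletal muscle actin, which was lower by -0.93. The strand was lower by -0.91 ± 0.08 with 3 of 3 probes lower and no overlap (0.22 to 0.68 and -0.65 to -0.40). The forward strand of chr3:96074625-96086375, with a histone transcript inside it that was higher by 0.83, was higher by 0.78 ± 0.26. Its groups overlapped widely (-1.41 to -0.28 and -1.11 to 1.23). It missed the threshold with median centring (adjusted p = 0.106), without wild type 3 (0.62, adjusted p = 0.070) and without transgenic 5 (0.71, adjusted p = 0.054).

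The reverse strand of chr19:5771425-5848475 holds Malat1 and Neat1, the nuclear noncoding RNAs of speckles and paraspeckles. It was lower by -0.84 ± 0.16, from -0.13 to 0.77 in wild type to -0.88 to 0.32 in transgenic arrays, with overlap, and by -0.94 without wild type 4. This value comes from its 1 kept probe, which overlaps Malat1 probes and none of Neat1. RNA of the region and RNA of Malat1 cannot be told apart there. Malat1 probes gave -1.03 to -0.91 and Neat1 probes -0.54 to -0.32. With median centring all 4 Malat1 probes were lower, and the 6 Neat1 probes gave -0.22 to 0.0087 and none passed the threshold. On chromosome 6, the reverse strand of chr6:31115515-31168433 holds the cDNA AB041803 of the array's description and was lower by -0.85 ± 0.16, with 3 of 3 probes lower. Its groups overlapped (-0.19 to 1.19 and -0.86 to -0.004), and with median centring it gave -0.61 and missed the threshold (adjusted p = 0.138).

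Noncoding RNAs with names of their own moved in both directions. Of a list of 50 such RNAs, 23 had a kept probe, 6 were higher and 5 lower (11 called, where 16.7% of all gene names were higher and 16.0% lower), and their median difference was -0.0004, where all kept probes had -0.0022. Of the 8 measured hosts of small nucleolar RNAs (Gas5 and 7 Snhg genes), 3 were higher, 1 was lower and 4 were not called, with differences of -0.19 to 0.10 in the last. Snhg12 was higher by 1.21 ± 0.07, from -0.91 to -0.67 in wild type to 0.26 to 0.63 in transgenic arrays. Snhg1 was higher by 0.56 ± 0.08, also without overlap. Gas5 was higher by 0.97 ± 0.07 at its brightest probe and by 0.18 and 0.09 at the 2 others, of which the last was not called. Snhg3 was lower by -0.73 ± 0.09 without overlap. H19, the imprinted RNA that hosts a microRNA, was higher by 1.00 ± 0.14, with 6 of 6 probes between 0.77 and 1.07. Airn and 2900097C17Rik were lower by -0.26 and -0.21, and Mir17hg and Peg13 higher by 0.24 and 0.22. With median centring Snhg12, Snhg1, Gas5 (its brightest probe), H19 and Malat1 passed the threshold, while Snhg3 (-0.51), Neat1 (-0.22), Airn (-0.04), Mir17hg (0.31) and Peg13 (0.48) missed it and 2900097C17Rik gave 0.06, the opposite sign.

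The likeness to Mif led to a search for kept region probes that resemble a probe elsewhere on the array, on another chromosome or over 100 kb away, with at least 40 aligned bases at 85% identity or more on the same strand. There were 97, on 81 strands, of which 19 were higher and 8 lower (27.8% called, against 31.8% of all kept probes). Among the 75 with a kept match the differences of probe and match correlated at r = 0.90 (Spearman 0.86), a description over pairs that share arrays and sequence. Of 26 called probes with a kept match, the match was called the same way in 17 and the other way in none. Region probes that are each other's match enter the correlation and these counts from both sides, so not all pairs are separate. On the reverse strand of chr6:122741562-122743423, a probe that was higher by 0.56 aligned with the probe of Uck1, a uridine-cytidine kinase gene on chromosome 2, over 60 bases at 96.7%, and Uck1 was higher by 0.45. Of the 20 strands named by size, the 2 that resemble Mif were in this set. Without the 97 probes, 221 region probes were higher and 523 lower.

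**Figure D5:**
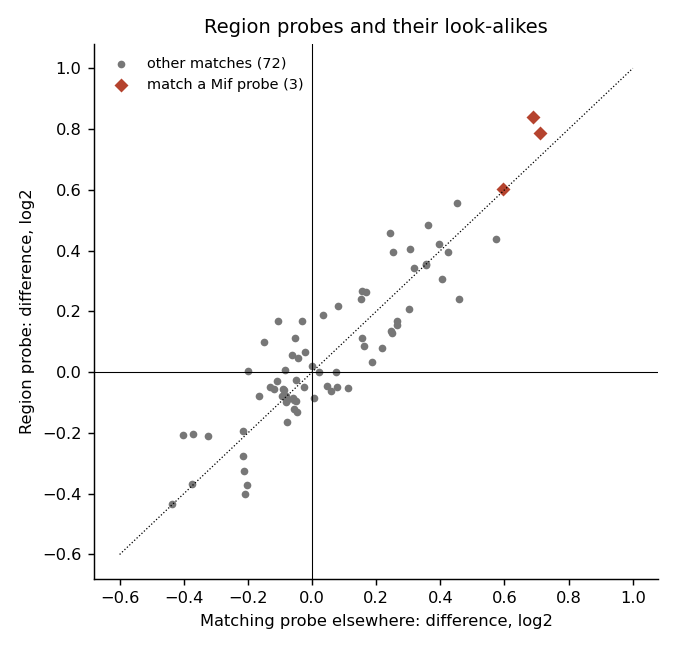
Difference of 75 kept region probes (vertical) against that of the best kept matching probe elsewhere on the array (horizontal), UCP1 transgenic minus wild type in log2, 1 point per region probe. Red diamonds are the 3 probes that match Mif, which stand at 0.60 to 0.84, and the dotted line marks equal differences. Region probes that are each other's match give a point each.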

How the data were processed

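Each array's deposited scanner output gives, per the file headers, an intensity for spot and surroundings in each dye, Agilent's log10 ratio of processed signals, and flags. The submitters' processing notes name Agilent Feature Extraction 10.5.1.1. The authors' deposited value table was taken as log2 intensity of Cy5. Its normalization is not given in the sources used here.

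Mean intensities were corrected by normexp with an offset of 50 and normalized by loess within arrays, with control and outlier spots at weight 0, in limma 3.58.1 (R 4.3.3). The offset draws ratios of dim probes toward 0. The groups were compared by lmFit and eBayes on all 13 arrays without covariates, two-sided, with Benjamini-Hochberg adjustment over 22740 probes, and this was tested on simulated data. Errors of differences are standard errors. The labels call the samples individual mice. The number of arrays limits the precision.

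A strand is represented by its brightest kept probe. The nearest gene is that of the nearest kept probe of a named gene, at most 100 kb away, by mm9 positions. Of 954 such gene names, 752 were matched to RefSeq (GRCm38.p6, names only). Probes were aligned with blastn.

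Strands were named by rule: the 10 largest differences in each direction among called strands without overlap; the 5 with the most probes called in 1 direction; those with probes, or strands, called in opposite directions; and 5 with no measured array in 1 group. The members and lists were chosen with earlier results of these data known. Alternatives were no loess, Agilent's ratio, Cy5 alone, the authors' table, other offsets and filters, slide and replicate blocks, and each array left out. Some results that these rules name are not reported here.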

Additional observations from a re-analysis of the deposited data

Results flagged for a closer look

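In 3 of 82 groups of arrays examined, about as many as the 4.1 that chance gives, 1 mouse lay far from the others of its group. On the forward strand of chr1:33893475-33903900, transgenic mouse 6 read -0.14, where the 6 others read 0.12 to 0.28. On the forward strand of chr12:85210777-85262127, the same mouse read 0.17, where the others read -0.24 to -0.08. On the forward strand of chr3:96074625-96086375, wild type mouse 3 read -1.41, where the others read -0.67 to -0.28.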

How the results depend on the processing

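The counts of region probes (240 higher, 531 lower) and strands (115 and 299) stayed within 1.5 times under the other settings run, except with no loess and median centring, where 74 and 94 probes and 34 and 35 strands were called. With 1 probe per gene name, 117 were higher and 302 lower, of 1881 tested. The median difference of -0.040 became 0.035 with median centring, -0.079 with Agilent's own log ratio, -0.060 with an offset of 10, -0.14 with the authors' table and -0.0079 with no filter on dim probes. The cause was not tested. With each array left out in turn, 208 to 245 probes were higher and 459 to 518 lower, 97 to 118 strands higher and 257 to 293 lower, the median was -0.044 to -0.033, and the excess of measured probes in transgenic arrays, 192 per array, was 113 to 294. The deviations of same-numbered mice from their group means correlated at -0.23 to 0.22, which was not tested and cannot settle whether the numbers mark pairs. The labels do not say that they do, and the main fit took the mice as unpaired. With the replicate number as a block 238 probes were higher and 477 lower. Of the 39 named strands, 27 kept direction and call under the settings that gave a value and none turned its direction. The 39 include the named strands with no measured array in 1 group, whose calls are not taken as tests. Median centring ended 12 calls. Leaving out region probes that resemble a probe elsewhere, chosen after seeing the data, left 103 strands higher and 291 lower. Low signal over background limits what could be measured for most region probes.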

Other observations

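Among the 13 regions with both strands lower, beside that at Mrln, chr7:88668948-88678046 gave -0.57 on the forward and -0.98 on the reverse strand, with 2900076A07Rik at -0.55. The region chr11:95627874-95640824 near Zfp652, a zinc finger gene that was itself at -0.60, gave -0.60 and -0.53. The region chr3:68867193-68876128 near Kpna4, an importin gene at -0.48, gave -0.73 and -0.39. By chromosome, the share of kept region probes that were called ran from 15.9% on chromosome 15 to 31.1% on chromosome 6. On chromosome 8, 32 probes were higher and 24 lower. Of the other chromosomes, each had more that were lower. Of the kept region probes, 40 were found whole in the window from 250 bases before to 50 after the start of a RefSeq gene (GRCm38.p6), 14 of them on the gene's strand.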
